A study of Homo sapiens with 6 samples.

Results

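Histone chaperones are proteins that carry histones from their synthesis to DNA. The 10 genes described here were chosen by name: CHAF1A, CHAF1B, ASF1A, ASF1B, NASP, HAT1, SLBP, HIRA, DAXX and ATRX. All 10 matched 1 Ensembl gene ID each among the 57773 IDs of the deposited table. The table holds 6 RNA-seq libraries from RPE1 cells, an immortalised human retinal pigment epithelial line. The 3 Nutlin-3 libraries came from cultures treated with Nutlin-3 at 2.5 µM over 24 h, and the 3 DMSO libraries from cultures that received its solvent, DMSO, over the same time. Nutlin-3 frees the transcription factor p53 from MDM2, which otherwise marks it for degradation, and the series set out to find p53 target genes. The labels name no mutation, transgene or clone in either group.

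New nucleosomes are built by 2 main routes. Behind the replication fork, CAF-1, a complex bound to the sliding clamp PCNA, deposits newly made H3 and H4, which ASF1 hands over from the soluble pool guarded by NASP. Outside replication, HIRA and the DAXX-ATRX pair deposit the variant H3.3, HIRA mainly at genes and promoters and DAXX-ATRX at telomeres and other heterochromatin. HAT1 acetylates newly made H4, and SLBP binds the stem-loop that ends the mRNA of replication-dependent histones. Demand for the first route follows S phase, whereas the second also serves cells that do not divide.

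Values are the authors' RPKM, in which the length of a gene is its full span with introns, so they can be compared between libraries but not between genes. Reads recovered from the RPKM came to between 31.6 and 37.0 M per Nutlin-3 library and between 28.4 and 41.0 M per DMSO library. CDKN1A, the p21 target of p53, stood at 724% of its DMSO level and MDM2 at 366%, whereas the proliferation marker MKI67 fell to 27.3%. Of 10 markers of retinal pigment epithelium, 5 had at least 10 reads in every library (among them OTX2 and MITF), RPE65 had at most 2 reads and TTR none. The summed RPKM of 4 epithelial genes, mostly KRT18 and KRT8, lay between 74.8 and 79.8 in Nutlin-3 libraries and between 42.8 and 47.3 in DMSO libraries. The defining genes CDH1 and EPCAM had at most 9 reads, and 3 genes of other cell types (PTPRC, ALB and SOX10) at most 6.

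Of the 10 chaperone genes, 9 fell with Nutlin-3, none rose and ATRX did not pass (limma on log2(RPKM + 0.05), Benjamini-Hochberg adjusted p under 0.05 over 22859 genes tested). By the same rule 16.6% of all genes tested fell and 18.3% rose, or 3791 and 4184 genes. With libraries scaled to their recovered reads, a setting added after the data were seen, 5481 of 22881 genes fell and 2868 rose. The median log2 fold change of all genes was then -0.083, and the same 9 chaperone genes passed. All 10 passed the filter of a mean of at least 0.05 RPKM. In all 10 the RPKM of the groups did not overlap, which held for 49.7% of all genes tested. The 4 genes grouped here as replication-coupled (CHAF1A, CHAF1B, ASF1B and NASP) fell to between 28.7% and 44.7% of their DMSO levels. ASF1A, which serves both routes and stood at 82.1%, was counted with neither. The grouping by which the genes were chosen sets ASF1 beside CAF-1 and NASP, and ASF1A was left out with earlier results of these data known. The median log2 fold change of the 4 genes was -1.47, or -1.41 with ASF1A among them (range -1.74 to -0.28). It was -0.25 for HIRA, DAXX and ATRX, which is the value of DAXX, and 0.0010 for all genes tested. The readings of HIRA and DAXX have limits given below. Less RNA per cell and fewer cells that express a gene cannot be told apart in these bulk libraries. The share of cells in S phase was not measured, and the part of the change in MKI67 in these results was not tested.

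**Figure D1:**
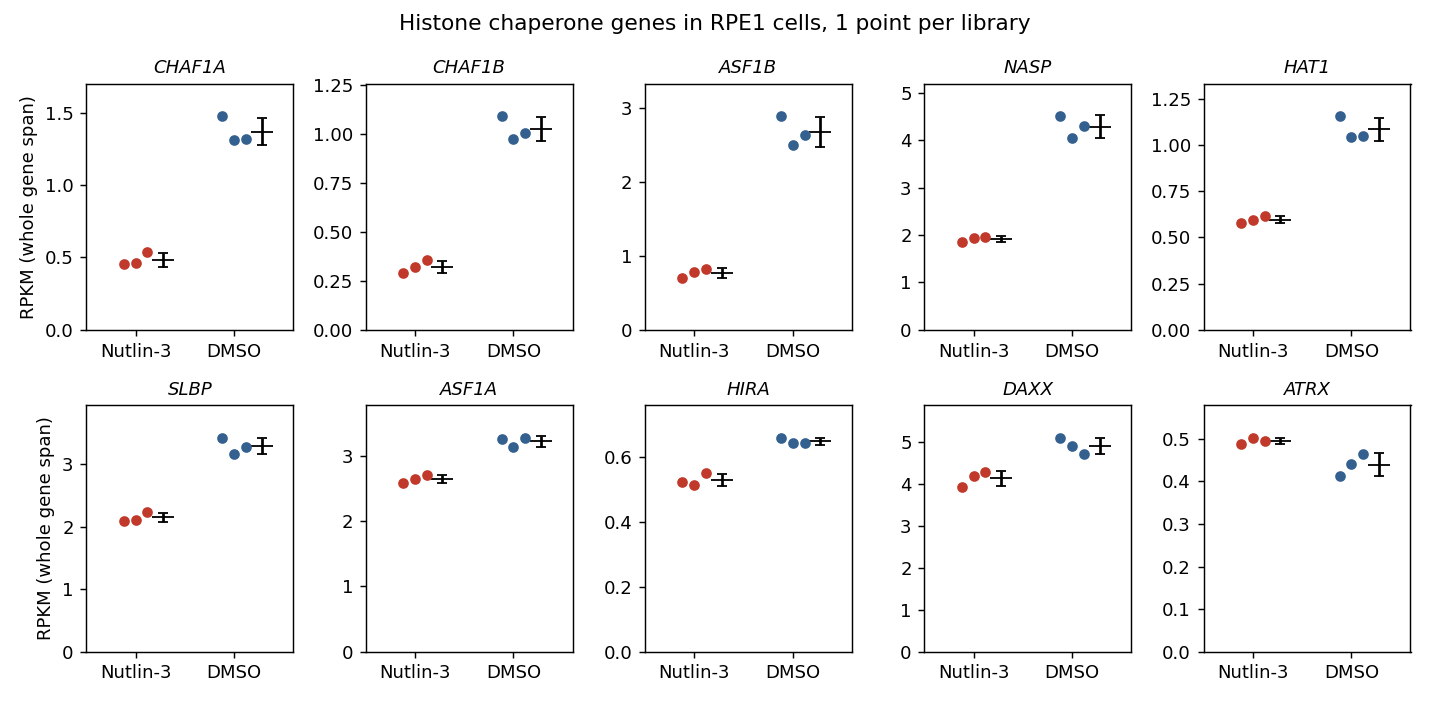
RPKM (whole gene span, linear axes from 0) of the 10 chaperone genes in each library, Nutlin-3 at the left of each panel and DMSO at the right, with mean ± SD beside the points (n = 3 per group). The 3 Nutlin-3 points lie below the 3 DMSO points in every panel but that of ATRX, where they lie above.

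RNA of both large subunits of CAF-1 fell. CHAF1A (ENSG00000167670, chromosome 19), the subunit that binds PCNA, had 0.452, 0.462 and 0.539 RPKM in Nutlin-3 replicates 1, 2 and 3, against 1.48, 1.31 and 1.32 RPKM in DMSO replicates 1, 2 and 3. It averaged 0.485 ± 0.0475 RPKM with Nutlin-3 and 1.37 ± 0.0952 RPKM with DMSO (SD, n = 3 each), or 35.4% of the DMSO level. The highest library of CHAF1A was DMSO replicate 1, and no Nutlin-3 library came near the lowest DMSO library. On the log2(RPKM + 0.05) scale the change was -1.41 (SE 0.083, limma adjusted p = 0.000312).

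CHAF1B (ENSG00000159259, chromosome 21), the WD-repeat subunit that binds ASF1, had 0.292, 0.319 and 0.354 RPKM with Nutlin-3, against 1.09, 0.975 and 1.00 RPKM with DMSO. These values rest on 310 to 384 reads per Nutlin-3 library and 977 to 1551 reads per DMSO library, the fewest of the 10 genes with Nutlin-3. CHAF1B fell to 31.4% of its DMSO level (log2 fold change -1.53, SE 0.078, limma adjusted p = 0.000224), and 1.98% of all genes tested had a lower log2 fold change. RBBP4, the small histone-binding subunit that CAF-1 shares with other chromatin complexes, fell less, to 74.7% of its DMSO level (limma adjusted p = 0.00152), and 18.0% of its exon length faces another gene on the opposite strand.

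The paralogues ASF1A and ASF1B, which both take up an H3-H4 dimer, moved by unlike amounts. ASF1B (ENSG00000105011, chromosome 19), the form tied to proliferating cells, had 0.699, 0.789 and 0.822 RPKM with Nutlin-3, against 2.90, 2.50 and 2.64 RPKM with DMSO. It fell to 28.7% of its DMSO level, the lowest share among the 10 genes (log2 fold change -1.74, SE 0.081, limma adjusted p = 0.000189). ASF1A (ENSG00000111875, chromosome 6), which also works with HIRA, had 2.58, 2.64 and 2.71 RPKM with Nutlin-3, against 3.25, 3.13 and 3.28 RPKM with DMSO. Its groups were also apart, but the fall was to 82.1% of the DMSO level (log2 fold change -0.28, SE 0.032, limma adjusted p = 0.00229).

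Within each library, log2 ASF1B minus log2 ASF1A averaged -1.72 ± 0.0834 with Nutlin-3 and -0.26 ± 0.0859 with DMSO (SD, n = 3 each). In this and the other pairs below, gene span enters the value of each library, so its sign does not rank the genes. Only the difference between the groups is read, where the span nearly cancels. The difference between the groups was -1.46, so the ratio of ASF1B to ASF1A fell to 0.364 times its DMSO value. A 2-sided exact permutation test over libraries gave p = 0.1, which is the lowest p that this design of 3 libraries per group can reach, and p = 0.1 after adjustment over 4 pairs of genes. Shares scaled by exon length take all reads as exonic. ASF1B made up 24.5%, 26.4% and 26.6% of the exon-scaled reads of both genes with Nutlin-3, against 51.6%, 49.0% and 49.0% with DMSO. The mean share of ASF1B in the pair was 25.8% ± 1.19 with Nutlin-3 and 49.9% ± 1.52 with DMSO, with no overlap.

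The 2 CAF-1 subunits moved nearly together. Log2 CHAF1B minus log2 CHAF1A was -0.56, -0.47 and -0.54 with Nutlin-3, against -0.42, -0.41 and -0.38 with DMSO. The difference between the groups was -0.12 (2-sided exact permutation p = 0.1, adjusted p = 0.1), and it turned to 0.035 with a pseudocount of 0.5, which weighs more on the lower gene. CHAF1B took 28.2% ± 0.702 of the exon-scaled reads of both subunits with Nutlin-3 and 30.7% ± 0.326 with DMSO. Both genes fell to between 31.4% and 35.4% of their DMSO levels, while their proportion shifted by a few percentage points.

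**Figure D2:**
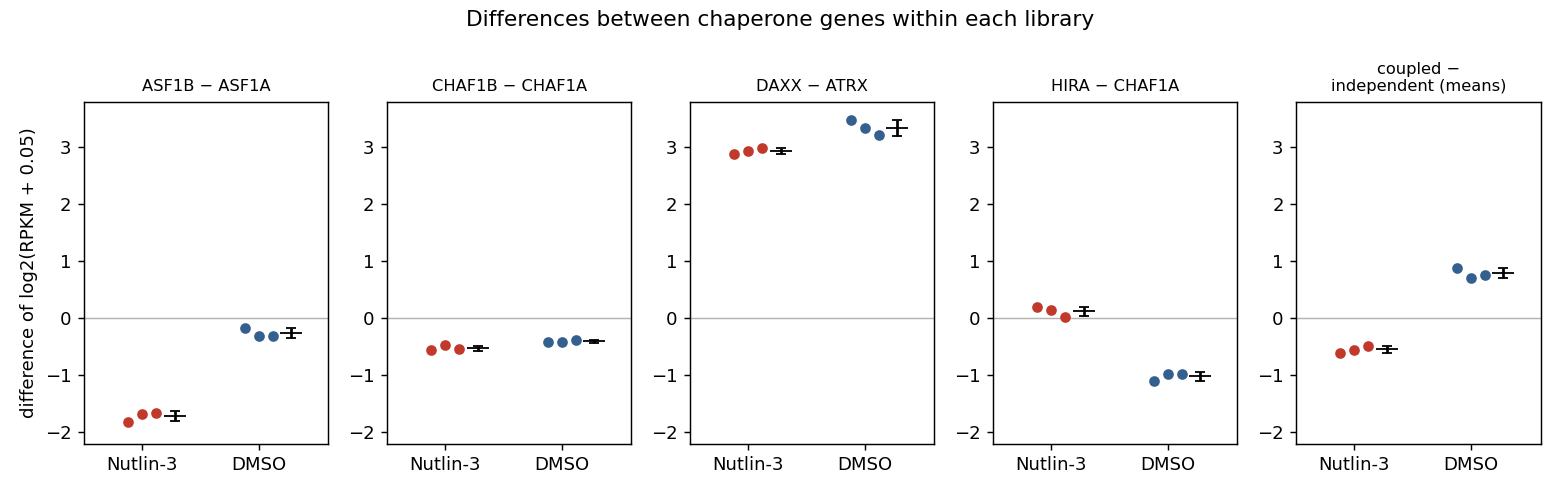
Difference of log2(RPKM + 0.05) between named genes within each library, Nutlin-3 at the left of each panel and DMSO at the right, with mean ± SD (n = 3 per group). The last panel gives the mean of CHAF1A, CHAF1B, ASF1B and NASP minus the mean of HIRA, DAXX and ATRX. ASF1B minus ASF1A averages -1.72 with Nutlin-3 and -0.26 with DMSO, and the last panel -0.55 and 0.79. Gene span enters each value, so its sign does not rank genes, and only the difference between the groups is read.

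NASP (ENSG00000132780, chromosome 1), the chaperone that holds the soluble reserve of H3 and H4, had 1.85, 1.93 and 1.97 RPKM with Nutlin-3, against 4.51, 4.04 and 4.30 RPKM with DMSO. With 2052 to 2422 reads per Nutlin-3 library and 4222 to 6686 per DMSO library, it is among the better covered of the 10 genes. It fell to 44.7% of its DMSO level (log2 fold change -1.14, SE 0.049, limma adjusted p = 0.000164). Of the 50-base words in NASP transcripts, 3.89% also occur in transcripts of other genes.

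The supply factors fell by less. HAT1 (ENSG00000128708, chromosome 2), the acetyltransferase of new H4, had 0.577, 0.592 and 0.617 RPKM with Nutlin-3, against 1.16, 1.04 and 1.05 RPKM with DMSO. That is 55.0% of the DMSO level (log2 fold change -0.81, SE 0.052, limma adjusted p = 0.000403). Its partner RBBP7, a histone-binding protein of the same acetyltransferase complex, fell to 58.4% (limma adjusted p = 0.000326). SLBP (ENSG00000163950, chromosome 4) had 2.10, 2.11 and 2.24 RPKM with Nutlin-3, against 3.43, 3.17 and 3.28 RPKM with DMSO. The fall of SLBP to 65.3% (log2 fold change -0.60, SE 0.043, limma adjusted p = 0.000558) lay between those of NASP and ASF1A.

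Promoters were read because the replication-coupled genes moved together. RefSeq starts (GRCh38.p14) were found for 8 of the 10 genes, all but DAXX and ATRX, as 250 bases before and 50 after the start. Both strands were searched for E2F-type words (TTTCCCGC, TTTCGCGC, TTTGCCGC, TTTGGCGC and TTCCCGCC, which can overlap one another), for CHR-type words (TTTGAA and TTCGAA, named after the cell cycle genes homology region) and for CCAAT. Of 35116 promoters of that length, 5.58% held an E2F-type word, 16.4% a CHR-type word and 34.6% CCAAT. The last 120 bases before the start are shown for both ASF1 paralogues, both CAF-1 subunits and HIRA, 5′ to 3′ on the gene's strand, with the words found in capitals.
ASF1B, chr19:14136590-14136709, minus strand: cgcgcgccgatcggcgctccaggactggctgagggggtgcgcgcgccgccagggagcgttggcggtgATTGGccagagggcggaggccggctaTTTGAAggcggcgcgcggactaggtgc
ASF1A, chr6:118894032-118894151, plus strand: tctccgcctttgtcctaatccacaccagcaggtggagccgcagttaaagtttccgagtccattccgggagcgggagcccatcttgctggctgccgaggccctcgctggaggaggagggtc
CHAF1A, chr19:4402520-4402639, plus strand: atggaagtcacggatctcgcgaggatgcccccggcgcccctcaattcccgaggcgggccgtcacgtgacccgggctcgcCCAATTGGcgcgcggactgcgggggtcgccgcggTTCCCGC
CHAF1B, chr21:36385272-36385391, plus strand: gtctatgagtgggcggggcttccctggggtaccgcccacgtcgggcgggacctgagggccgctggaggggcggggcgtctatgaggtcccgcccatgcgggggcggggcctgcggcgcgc
HIRA, chr22:19431734-19431853, minus strand: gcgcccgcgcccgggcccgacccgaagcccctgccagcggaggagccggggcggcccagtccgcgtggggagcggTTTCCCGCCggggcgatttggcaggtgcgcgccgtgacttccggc

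ASF1B was the 1 gene of the 8 with a CHR-type word, where 16.4% of all promoters of that length held one. The word, TTTGAA, lay at -27 to -22 from the start. The reverse of CCAAT lay at -53 to -49, with 2 more copies further upstream. The window of ASF1A held none of these words before the start and CCAAT at 16 to 20 after it. CHAF1A held an E2F-type word at -7 to 1, whose last letter lies past the stretch shown, and 4 matches to CCAAT. CHAF1B and SLBP held none of the words searched, and NASP and HAT1 held 1 CCAAT each. HIRA, which fell to 81.6% of its DMSO level, held 2 overlapping E2F-type words at -45 to -37. A word in a promoter describes its letters and not a bound factor.

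On the replication-independent route 2 of the 3 genes passed as falls, where 16.6% of all genes tested fell. HIRA stood at 81.6% and DAXX at 84.1% of the DMSO level, and ATRX did not pass. HIRA (ENSG00000100084, chromosome 22), the scaffold of the H3.3 chaperone complex, had 0.524, 0.516 and 0.551 RPKM with Nutlin-3, against 0.662, 0.645 and 0.643 RPKM with DMSO. It fell to 81.6% of its DMSO level (log2 fold change -0.27, SE 0.036, limma adjusted p = 0.00378). HIRA cannot be read apart from C22orf39, since 66.5% of its exon length lies in exons of that gene on the same strand. C22orf39 had 0.521, 0.515 and 0.552 RPKM with Nutlin-3, against 0.658, 0.641 and 0.653 RPKM with DMSO, almost the values of HIRA.

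DAXX (ENSG00000204209, chromosome 6), which folds around an H3.3-H4 dimer, had 3.92, 4.17 and 4.28 RPKM with Nutlin-3, against 5.10, 4.89 and 4.72 RPKM with DMSO. The highest Nutlin-3 library stood just below the lowest DMSO library, and DAXX fell to 84.1% of its DMSO level (log2 fold change -0.25, SE 0.047, limma adjusted p = 0.0130). Of its exon length, 14.3% is shared with another gene on the same strand. The reads of DAXX imply a longer span than GENCODE 29 gives (10712 against 4459 bases). The change may therefore be that of a differing stretch.

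ATRX (ENSG00000085224, chromosome X), the chromatin remodeller that works with DAXX, was the 1 gene of the 10 that was higher with Nutlin-3. It had 0.487, 0.503 and 0.495 RPKM with Nutlin-3, against 0.412, 0.440 and 0.465 RPKM with DMSO. At 113% of the DMSO level the log2 fold change of 0.16 (SE 0.050) did not pass (limma adjusted p = 0.0616). On the recovered reads, 4231 to 5068 per Nutlin-3 library and 3689 to 4903 per DMSO library, it passed (log2 fold change 0.18, limma voom adjusted p = 0.000746), where 26.0% of 20728 genes rose. It also passed without DMSO replicate 3 (log2 fold change 0.20, limma adjusted p = 0.0417), the DMSO library with the highest ATRX value. With libraries scaled to their recovered reads the log2 fold change was 0.070 (limma adjusted p = 0.351).

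Log2 DAXX minus log2 ATRX averaged 2.94 ± 0.0534 with Nutlin-3 and 3.34 ± 0.134 with DMSO, a difference of -0.40 (2-sided exact permutation p = 0.1, adjusted p = 0.1). The contrast between the routes was larger. Log2 HIRA minus log2 CHAF1A averaged 0.12 ± 0.0852 with Nutlin-3 and -1.02 ± 0.0745 with DMSO (SD, n = 3 each), a difference of 1.14 (2-sided exact permutation p = 0.1, adjusted p = 0.1). Gene span enters these values, so their signs do not rank the genes, whose levels are compared below. The mean of the 4 replication-coupled genes minus the mean of HIRA, DAXX and ATRX was -0.61, -0.55 and -0.48 in the Nutlin-3 libraries, against 0.88, 0.72 and 0.76 in the DMSO libraries. The difference between the groups was -1.33, and -1.10 with ASF1A counted as replication-coupled, both given as a description with no test. Of the replication-independent genes, HIRA shares exons with C22orf39 and the gene counted as DAXX may differ. That leaves ATRX as the 1 gene of that route without such a limit.

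Levels of different genes were compared as exon RPKM, recomputed from the recovered reads with exon length in place of the gene span (basic transcripts of GENCODE 29). All reads were taken as exonic. The authors' length includes introns and their counter is not known here, so intron reads may be among them. Such reads would raise the exon RPKM of a gene and could change its place. On that scale the DMSO order was led by HAT1 at 46.4 ± 2.74 and NASP at 44.8 ± 2.46, whose libraries overlapped, followed by SLBP at 32.5 ± 1.29. ASF1A, ASF1B and DAXX lay between 20.1 and 20.4 and overlapped from each to the next. The reads of DAXX imply a span of 10712 bases against 4459 in GENCODE 29, so the gene counted by the authors may differ from the one measured here. Its change, its exon RPKM and its place in the order are therefore uncertain. To a lesser degree this holds for HAT1, whose reads imply a span of 69642 bases against 61235. HIRA at 18.8 ± 0.292 overlapped with CHAF1A at 17.4 ± 1.21, and ATRX at 11.1 ± 0.664 and CHAF1B at 7.68 ± 0.456 came last.

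With Nutlin-3 the 3 lowest genes were CHAF1A at 6.15 ± 0.603, ASF1B at 5.83 ± 0.484, which overlapped with it, and CHAF1B at 2.41 ± 0.235 exon RPKM. HAT1 at 25.5 ± 0.861, SLBP at 21.3 ± 0.780 and NASP at 20.04 ± 0.611 stayed on top without overlap, then DAXX and ASF1A, which overlapped, HIRA and ATRX. On this scale, which takes all reads as exonic, ATRX stood above CHAF1A and ASF1B with Nutlin-3 and below both with DMSO. The place of HAT1 also rests on the exon set. With exons of all annotated transcripts it ranked 7 of 10 with Nutlin-3 and 8 of 10 with DMSO, and SLBP was highest in both groups.

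**Figure D3:**
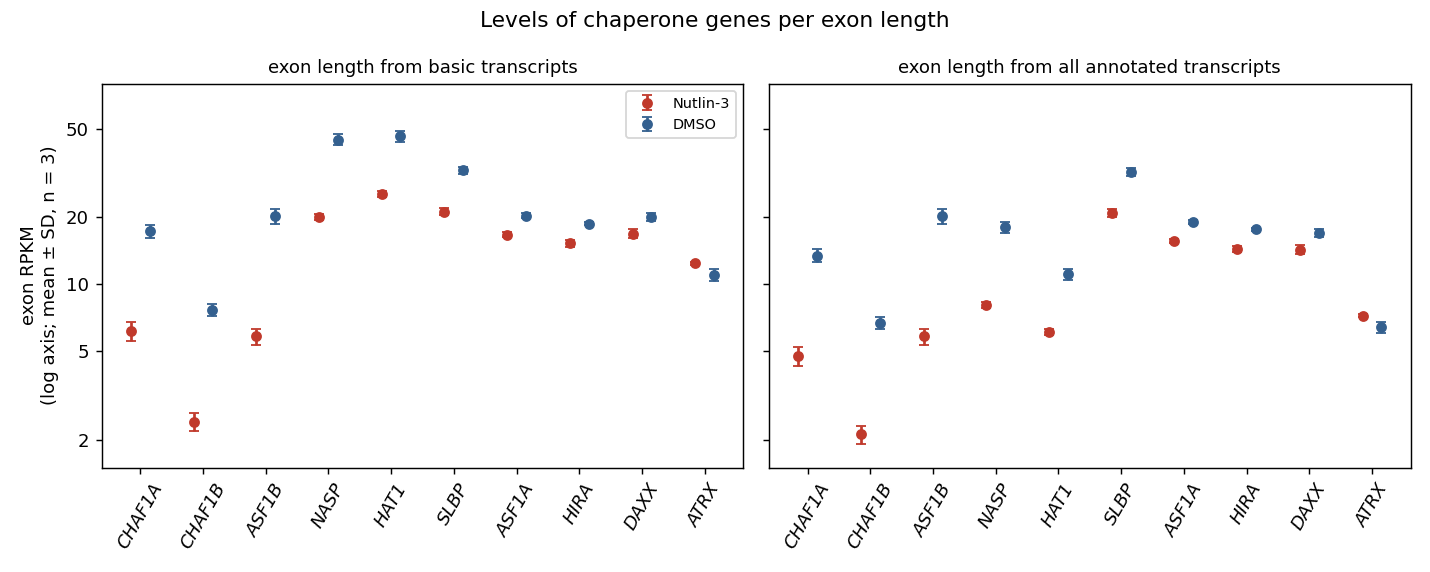
Exon RPKM (log axis, mean ± SD, n = 3 per group) of the 10 genes, Nutlin-3 left of DMSO for each gene, with exon lengths from basic transcripts (left) and from all annotated transcripts (right). CHAF1A, CHAF1B and ASF1B have the 3 lowest means with Nutlin-3 in both panels, though the libraries of ASF1B overlap with those of HAT1 in the right panel. The places of several genes, HAT1 and NASP among them, depend on the exon set. All reads are taken as exonic, which is not known here.

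Another 42 genes that work beside these chaperones were examined in 5 lists. All 42 were tested, 33 fell, 3 rose and 6 did not pass, with a median log2 fold change of -0.45 against 0.0010 over all genes tested. Of all genes tested, 16.6% fell and 18.3% rose, which holds beside the counts of each list below. Of 9 partners of H3-H4 supply at the fork, 8 fell, with a median of -0.78. MCM2, the helicase subunit that also holds parental H3-H4, had 1.55 ± 0.104 RPKM with Nutlin-3 and 4.61 ± 0.242 RPKM with DMSO (limma adjusted p = 0.000152). Of its exon length, 23.6% faces other genes on the opposite strand, and whether the counting used strand is not known here. TONSL and MMS22L, which together read new H4 behind the fork, fell to 41.7% and 38.4% of their DMSO levels (limma adjusted p = 0.000284 and 0.000303). The exception was IPO4, an importin for H3-H4, at 111% (limma adjusted p = 0.0615), and 69.3% of its exon length is shared with another gene on the same strand.

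Partners of HIRA and the H3.3 genes went both ways, with 3 of 6 falling, 2 rising and a median of -0.16, where 18.3% of all genes tested rose. UBN2 and CABIN1, subunits of the HIRA complex, had 0.493 ± 0.00820 and 0.679 ± 0.0138 RPKM with Nutlin-3, against 0.434 ± 0.0232 and 0.607 ± 0.0276 RPKM with DMSO. Both rises were slight (limma adjusted p = 0.0439 and 0.0427), and both calls were lost without DMSO replicate 1 or 3 or any 1 Nutlin-3 library (adjusted p from 0.062 to 0.131). UBN2 was also lost without DMSO replicate 2 (adjusted p = 0.0647). With libraries scaled to their recovered reads neither passed, at log2 fold changes of 0.079 and 0.062 (limma adjusted p = 0.299 and 0.356). UBN1, another subunit of the HIRA complex, went the other way and fell to 89.3% of its DMSO level (log2 fold change -0.16, limma adjusted p = 0.00537). DEK, an oncoprotein that acts as an H3.3 chaperone, fell to 58.0% of its DMSO level (limma adjusted p = 0.000388). H3-3B, which encodes H3.3, had 23.5 ± 0.584 RPKM with Nutlin-3 and 30.7 ± 1.53 RPKM with DMSO (limma adjusted p = 0.00219). The second H3.3 gene, H3-3A, stood at 89.7% of its DMSO level and did not pass (limma adjusted p = 0.0636), but passed under 7 of 17 other settings (adjusted p from 0.00275 to 0.0476).

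All 5 genes of CENP-A loading, which places the centromeric H3 variant, fell, with a median of -1.37. The chaperone HJURP stood at 27.6%, OIP5 of the MIS18 complex at 27.8% and its partner MIS18A at 36.6% of the DMSO level (limma adjusted p between 0.000109 and 0.000224). CENPA itself, the histone that HJURP carries, fell to 73.8% (limma adjusted p = 0.000626). Of OIP5's exon length, 38.0% is shared with an antisense gene.

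Of 12 genes for FACT, SPT6 and chaperones of H2A-H2B or of histones in general, 10 fell and 1 rose, with a median of -0.43. ANP32E, which removes H2A.Z from nucleosomes, had 3.58 ± 0.174 RPKM with Nutlin-3 and 7.20 ± 0.380 RPKM with DMSO (limma adjusted p = 0.000273). The FACT subunits SSRP1 and SUPT16H stood at 57.6% and 63.6% of the DMSO level, and ANP32B, an acidic chaperone, at 63.3% (limma adjusted p between 0.000162 and 0.000403). SUPT6H, the elongation factor SPT6, rose to 115% (log2 fold change 0.20, limma adjusted p = 0.0106). NAP1L1, a general H2A-H2B chaperone, stood at 97.3% with overlapping groups and did not pass (limma adjusted p = 0.432), but fell with libraries scaled to their recovered reads (log2 fold change -0.13, limma adjusted p = 0.0141).

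In the list of histone mRNA transcription and processing, the setting of SLBP, 7 of 10 genes fell, 0 rose and the median was -0.38. CASP8AP2, a factor of the histone locus body, had 0.578 ± 0.00897 RPKM with Nutlin-3 and 1.03 ± 0.0105 RPKM with DMSO (limma adjusted p = 0.000131). The exonuclease ERI1, which trims the histone mRNA end, fell to 58.6% and LSM11 of the U7 particle to 66.3% of the DMSO level (limma adjusted p = 0.00135 and 0.00835). NPAT, the coactivator of clustered histone genes, fell to 66.4% (limma adjusted p = 0.000623). SYMPK, CPSF2 and LSM10, the first 2 of them shared with the general cleavage machinery, did not pass, at 98.1%, 93.6% and 108% of their DMSO levels. SYMPK and CPSF2 passed as falls with libraries scaled to their recovered reads (limma adjusted p = 0.0140 and 0.0107).

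**Figure D4:**
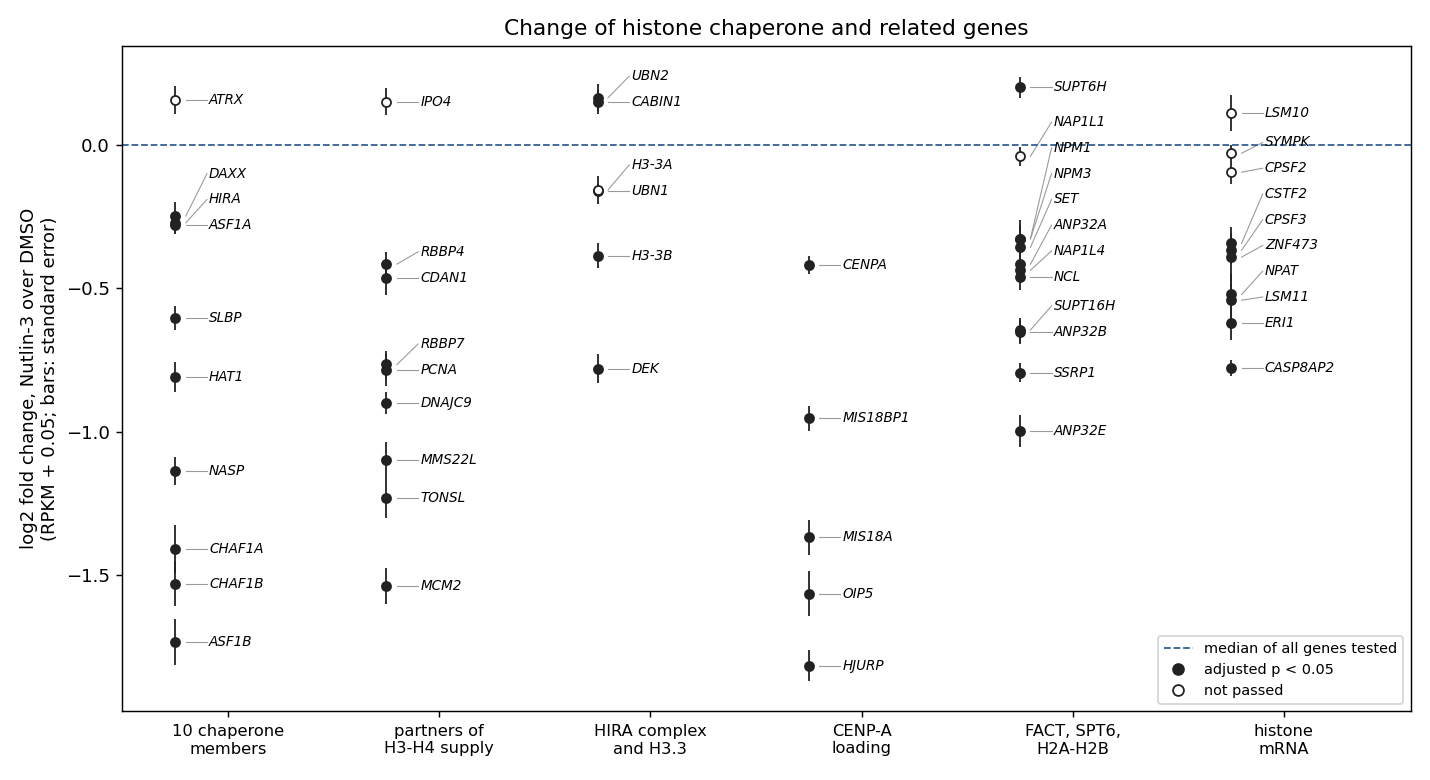
Log2 fold change of RPKM + 0.05, Nutlin-3 over DMSO (bars: standard error), for the 10 chaperone genes and the 42 genes of 5 related lists, with filled points for adjusted p under 0.05 by limma. The dashed line marks the median of all genes tested, 0.0010. ASF1B at -1.74 and HJURP at -1.82 lie lowest in their columns, and ATRX lies above the line.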

How the data were processed

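The authors deposited 1 table of RPKM, with a column for each of the 6 libraries. The submitters' processing notes name CASAVA 1.8.2, TopHat2, edgeR and hg19 without roles. No source used here names the counter, the annotation or the use of strand. Per the labels' protocols, libraries were poly(A)-selected and stranded. Multiplied by the gene span of GENCODE 29, 90.1% of low RPKM gave whole reads within 0.01, against 25.2% with exon length. Reads came from spans for 27538 genes, among them CHAF1A, CHAF1B, ASF1B and SLBP. For 8825 others the smallest whole numbers in the observed ratios were taken, and true counts there could be a multiple. Library sizes behind the RPKM were 0.962 to 0.981 times the recovered reads in Nutlin-3 libraries and 1.03 to 1.05 times in DMSO libraries, which sets Nutlin-3 values higher than scaling to recovered reads would.

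The limma fit (version 3.58.1, R 4.3.3) used log2(RPKM + 0.05) of genes whose mean reached 0.05 RPKM, with group as its single term and a mean-variance trend, and was tested on simulated data. Percentages of the DMSO level are ratios of mean RPKM. Members, lists, filter and tests were chosen with earlier results of these data known. Named list genes are, by rule, up to 3 with the largest change past the threshold and up to 2 that moved against their list's median. RBBP4, RBBP7, IPO4, UBN1, H3-3A, CENPA, SUPT16H, NAP1L1, NPAT, SYMPK, CPSF2 and LSM10 were named after their values were seen. Each library was counted as 1 replicate. No 2 libraries agreed within sampling noise (chi-square per gene from 1.63 to 4.82 within groups). That does not tell separate cultures from separate library preparations. Whether replicates were separate cultures is not stated, and the p-values then describe the spread among these libraries, perhaps a technical one.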

Additional observations from a re-analysis of the deposited data

How the results depend on the processing

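All 9 falls among the 10 genes passed under 17 other settings, leaving out each library included, except that of DAXX with the replicate block (adjusted p = 0.0739). Of all genes, 5045 of 20728 fell on recovered reads and 5481 of 22881 with libraries scaled to them, against 3791 of 22859 in the main fit. Same-numbered libraries did not deviate together (correlations of -0.025, -0.015 and -0.013), so no pairing by number was visible. The labels do not say whether same-numbered libraries were made together, and such correlations cannot exclude it. With the block 2479 genes fell, against 3791 without it, and no gene of the HIRA complex list rose. ATRX had no value with a minimum mean of 0.5 RPKM. Rises counted 1 in place of 0 among the 10 genes (ATRX) on recovered reads, with quantile normalization (log2 fold change 0.19, adjusted p = 0.0352) and without 1 library (range 0 to 1).

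IPO4 alone took the partner list from 0 to 1 rise on recovered reads, with quantile normalization and with a minimum of 0.5 RPKM (with either pseudocount), and leaving out 1 library gave 0 to 1. The HIRA complex list had 2 rises, but 0 with a minimum of 0.5 RPKM, with median-of-ratios scaling, with no filter or with libraries scaled to recovered reads (chosen after seeing the data), 1 with no mean-variance trend or with pseudocount and minimum of 0.5, and 0 to 1 without 1 library. The histone mRNA list had 0 to 1 rises without 1 library, and 4 in place of 7 falls with a minimum of 0.5 RPKM with either pseudocount, which leaves fewer genes. With a pseudocount of 0.5 the CHAF1B minus CHAF1A difference was 0.035 in place of -0.12. The difference between the routes was then -0.93 in place of -1.33. With ASF1A counted as replication-coupled, and the main pseudocount, the difference between the routes was -1.10. That value was added after seeing the data, but leaving ASF1A out was also chosen with earlier results known. With exons of all annotated transcripts, an alternative chosen after seeing the data, ASF1B made up 27.1% of the ASF1 pair with Nutlin-3 and 51.5% with DMSO, and CHAF1B 30.7% and 33.3% of its pair. Values of low genes shrink with the pseudocount. Of 17 settings, CPSF2 passed under 2 (recovered reads, and libraries scaled to them) and LSM10 under 1 (without DMSO replicate 1).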
